A study of Mus musculus with 11 samples.

Results

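The clustered protocadherin genes were followed in newborn mouse pancreas, in which CpG methylation had been measured by reduced representation bisulfite sequencing (RRBS). RRBS cuts DNA at short recognition sites, here with MspI and TaqI, and reads the methylated share of cytosines at CpG sites close to the cuts. All animals were wild type C57BL/6N pups whose whole pancreas was taken at postnatal day 0 (P0). The Amphetamine group held 5 pups, 3 female and 2 male, of dams that received amphetamine (10 mg/kg) on embryonic days 14.5, 15.5 and 16.5. The Saline group held 6 pups, 3 female and 3 male, with saline as the labelled treatment, and is the control. The labels do not tie a pup to a dam or litter, so the p-values given here measure the spread between these pups, some of which may be littermates. The pancreas was not sorted into cell types, and a change in the mix of cells cannot be told apart from a change of methylation within a cell type.

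Members were the rows whose gene symbol starts with Pcdha, Pcdhb, Pcdhga, Pcdhgb or Pcdhgc followed by a number, or with Pcdhac. This gave 31 of 24391 promoters and 40 of 25802 genes. A further 14 promoters and 14 genes carry no symbol but have an identifier that the gene annotation assigns to the same clusters, which brings the total to 45 promoters and 54 genes. Of the symbol rows, 2 list several alpha or gamma symbols at once and are named here by the gene start nearest to them, as Pcdha10 and Pcdhgc4. In addition, 27 of 14841 CpG islands overlap these genes, and 125 of 259716 windows of 5000 bp lie along the clusters. Each promoter row covers the 1500 bp before a gene start and the 500 bp after it. All members lie on chromosome 18 of the mouse genome (build mm10), on the plus strand, between positions 36930184 and 37841873.

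Clustered protocadherins are cell-surface adhesion proteins best known from neurons, where single cells each express their own small combination of isoforms and so acquire a surface identity. In the alpha and gamma clusters, each variable exon has its own promoter and is spliced to constant exons shared by the cluster, which encode the common cytoplasmic tail. Beta genes have a single exon and no constant part. Most variable promoters are chosen at random from cell to cell, a choice in which DNA methylation of the promoter (deposited by Dnmt3b among others) and binding of CTCF and cohesin take part. The C-type members at the ends of the alpha and gamma clusters (Pcdhac1, Pcdhac2, Pcdhgc3, Pcdhgc4 and Pcdhgc5) follow a different, less random rule in neurons. Alternate promoters are usually unmethylated where they are active and methylated where they are silent.

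Clustered protocadherin promoters were partially methylated in Saline pancreas. Of the 31 promoters named by symbol, 25 (80.6%) had a mean between 20 and 80% methylation, as had 37 of all 45 (82.2%). Among all 24391 promoters only 21.2% lay in this range, 59.0% lay below 20% and 19.9% above 80%. No member promoter had a Saline mean above 80%. The median over the 31 members was 42.6% in Saline and 45.7% in Amphetamine, compared with 8.15% and 8.29% over all promoters. The 567 other promoters on chromosome 18 had a Saline median of 5.0%.

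**Figure D1:**
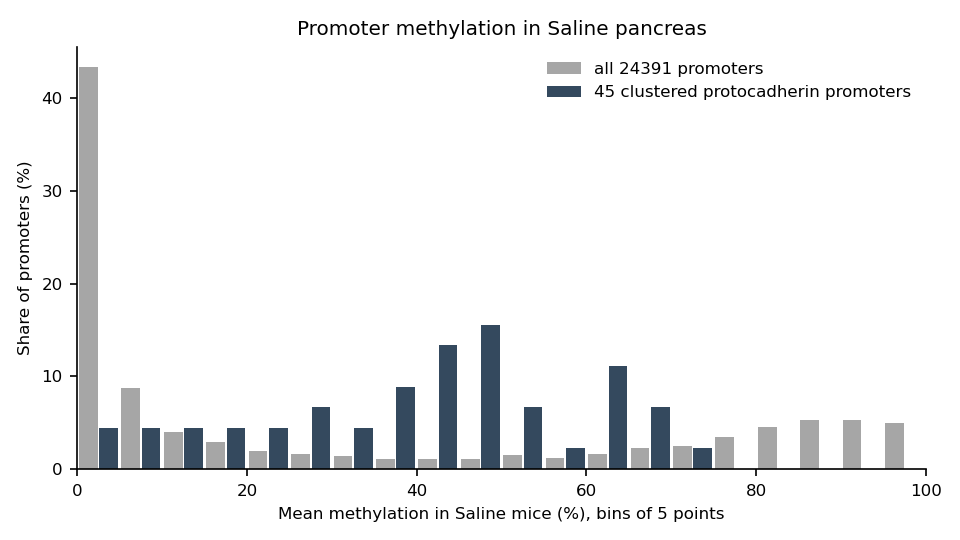
Share of promoters (y axis, percent) in bins of 5 points of mean methylation in the Saline mice (x axis, percent), for all 24391 promoters (grey) and the 45 clustered protocadherin promoters (dark). All promoters crowd at the low end with a second rise above 80%, whereas 37 of the 45 members sit between 20 and 80%.

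Related genes outside the clusters had lower median promoter levels. The 13 non-clustered protocadherins with a promoter value had a Saline median of 3.62%, and the 9 classical cadherins had a median of 4.03%. The lowest of the classical cadherins stood at 1.79% and the highest, Cdh5 of the endothelium, at 55.0% on a mean coverage of 8.67 reads. Of 22 genes known to regulate the clusters (CTCF, cohesin subunits, DNA methyltransferases, TET enzymes and others), 16 had a promoter value, with a Saline median of 4.11%. Among them the promoters of Ctcf (2.97%) and of Dnmt3b (5.08%) were nearly unmethylated in Saline, whereas those of Tet1 (71.0%) and Trim28 (54.2%) lay within the range of the members, as did Pcdh12 (51.1%) among the non-clustered protocadherins. None of these 3 lists held a promoter past an adjusted p of 0.05 between the treatment groups (limma). An unadjusted p under 0.05 was reached by 1, 1 and 2 of their promoters respectively, namely Pcdh12, Cdh13, and Tet2 and Rest, which are named here after their values were seen. Over all promoters 4.12% reached this limit. Since the series measured DNA and no RNA, markers of cell types could only be read as promoter methylation. At an unadjusted p under 0.05, 1 of 4 endocrine marker promoters was counted, as were 0 of 3 acinar, 0 of 3 duct, 0 of 6 neural, 0 of 1 immune and 0 of 3 mesenchymal ones. The endocrine one was Neurod1, with 13.1% in Amphetamine and 5.07% in Saline (limma, adjusted p = 0.958). It was not the largest shift among the markers. Amphetamine minus Saline ranged from -10 to 8.04 percentage points over the endocrine promoters and from -0.302 to 25.9 over the duct ones. Over the acinar ones it ranged from -23.1 to 37.5, on mean coverages down to 1.8 reads.

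The sequence under the member promoters was poorer in CpG than that of promoters at large. They held a median of 39 CpG sites in 2000 bp of the mm10 reference at a GC content of 41.5%, compared with 58 sites and 50.6% for all promoters. A median of 14 of these sites lay within 50 bp of an MspI or TaqI cut and could be reached by the reads, ranging from 4 to 59 between members. The beta promoters were the sparsest class, with a median of 27 CpG sites of which 9 were reachable. The mean coverage (reads over the CpG sites of a region, averaged over all mice of a group) ranged between 5.67 and 845.6 among member promoters. Its median was 115.4 in Amphetamine and 75.2 in Saline, so that a methylation value often rested on fewer reads in the control. Coverage was higher in Amphetamine at 38 of the 45 members, as it was at 82.3% of all promoters.

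The alpha promoters, each in front of a variable exon of the alpha cluster, had the narrowest range of Saline means among the 5 classes. These spanned 38.5 to 63.6% over 12 promoters with a median of 46.7%. Pcdha8 was highest with 63.6 ± 6.88% (authors' mean and SD, n = 6), the individual mice ranging from 57.6 to 75.5%. Next came Pcdha10 with 51.4 ± 18.6% (mice from 21.9 to 75.8%) and Pcdha7 with 51.0 ± 16.9% (32 to 78.6%). Lowest were Pcdha2 (38.5 ± 9.63%), Pcdha4 (38.6 ± 15.3%) and Pcdha9 (40.5 ± 19.1%, n = 5). The SD between Saline mice at a single alpha promoter had a class median of 14.1 percentage points, and the mice at Pcdha2 and Pcdha10, for example, overlapped widely.

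The beta promoters, each in front of a complete single-exon gene, had a Saline median of 58.6% and a wide range over 10 promoters. This was the highest class median in Saline, but not in Amphetamine (50.7% for beta and 50.9% for alpha), nor in Saline at a coverage of at least 50 in both groups (46.9% for beta and 47.0% for alpha). Pcdhb6 reached 73.0 ± 38.2% (n = 6), with mice from 5.88 to 100%. Pcdhb13 (65.5 ± 20.3%) and Pcdhb3 (63.0 ± 16.1%) followed. At the other end stood Pcdhb12 with 13.9 ± 21.6%, Pcdhb2 with 29.9 ± 11.3% and Pcdhb1 with 34.0 ± 31.0%. Pcdhb16 covered the whole scale among the Saline mice, from 0 to 100%, around a mean of 56.1 ± 44.3%. Its mean coverage was 32.3 reads.

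The gamma promoters had lower class medians in Saline. The gamma A class had a Saline median of 41.4% over 11 promoters and gamma B of 33.4% over 7. In gamma A, Pcdhga5 (65.0 ± 25.7%, n = 5), Pcdhga6 (46.2 ± 29.7%) and Pcdhga10 (42.6 ± 5.76%) were highest among promoters with a coverage of at least 10. Pcdhga2 (7.14 ± 8.25%), Pcdhga4 (17.5 ± 19.1%, n = 5) and Pcdhga11 (27.5 ± 7.73%) were lowest. Pcdhga12 was left out of this ranking, since only 3 Saline mice had a value (0, 100 and 100%) on a mean coverage of 5.67. In gamma B, the order ran from Pcdhgb8 (52.3 ± 17%) over Pcdhgb5 (40.8 ± 8.02%) and Pcdhgb2 (36.2 ± 15.3%) to Pcdhgb4 (23.4 ± 6.42%), Pcdhgb6 (16.2 ± 20.3%) and Pcdhgb7 (13.9 ± 11.8%). Pcdhgb1 lay between these with 33.4 ± 41.0%, its Saline mice ranging from 0 to 96.8%.

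The C-type promoters were split. Pcdhac2, Pcdhgc3 and Pcdhgc4 were nearly unmethylated in both groups, far below the alpha promoters, of which the lowest stood at 38.5% in Saline. Pcdhac2 had 2.86 ± 5.99% in Saline and 1.43 ± 3.19% in Amphetamine. Pcdhgc3 had 5.28 ± 4.54% and 4.13 ± 3.82%, respectively. Pcdhgc4 stood at 0% in all 6 Saline mice and at 2.34 ± 3.33% in Amphetamine, where the highest mouse had 7.14%. In contrast, Pcdhac1 was partially methylated in both groups (23.3 ± 5.98% in Saline and 22.5 ± 8.88% in Amphetamine) on a mean coverage of 341 and 393 reads. Pcdhgc5 had the highest C-type mean, 66.3 ± 47.1% in Saline, but its 4 Saline mice with reads stood at 0, 65.2, 100 and 100% on a mean coverage of 11 reads.

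**Figure D2:**
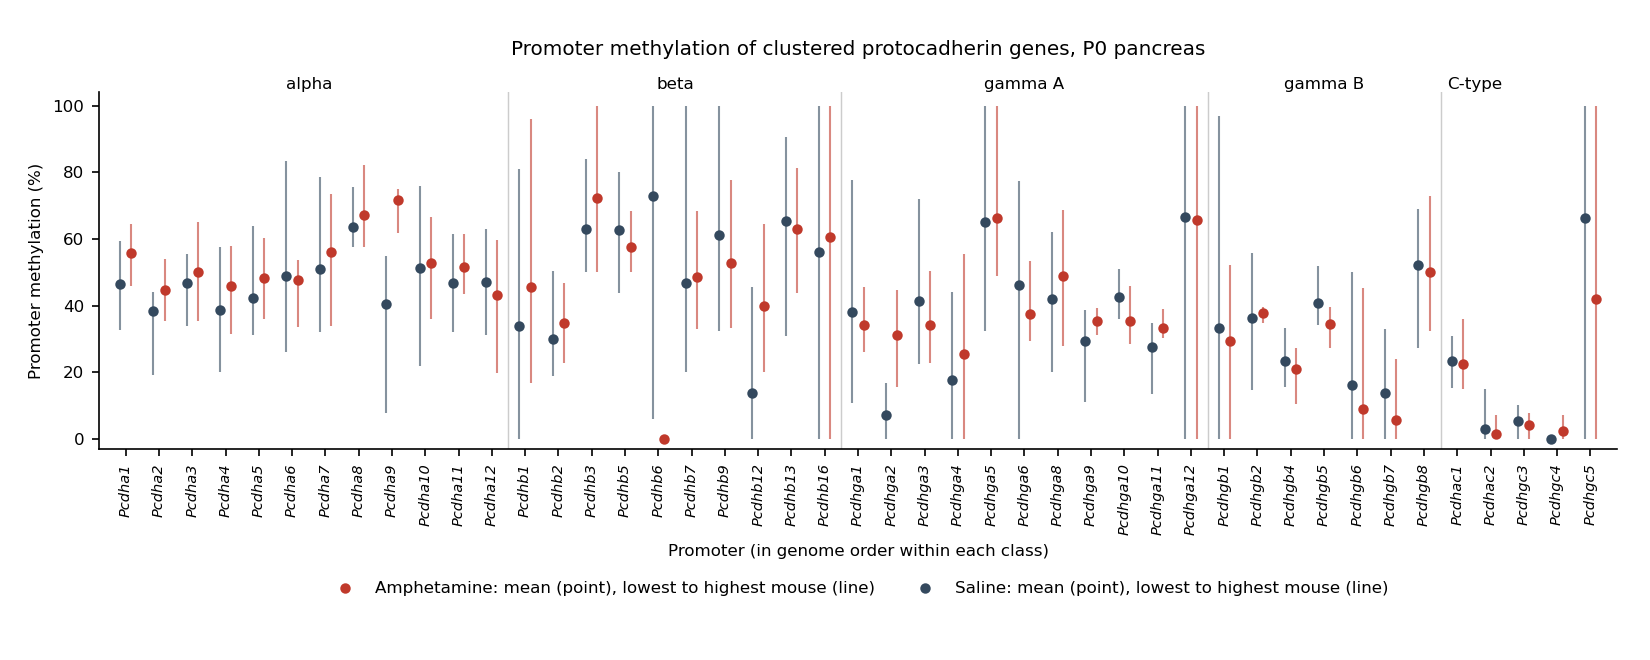
Methylation (y axis, percent) of each of the 45 clustered protocadherin promoters (x axis, in genome order within each class) in Saline (dark) and Amphetamine (red) mice; points are the authors' means and lines run from the lowest to the highest mouse. The lines of the groups overlap at all promoters except Pcdha9 and Pcdhb6, and 3 of the 5 C-type promoters lie near 0 in both groups.

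The median spread between mice was lower at higher coverage. Among promoters between 20 and 80% in Saline with values in all 6 mice, the 9 members with a coverage of 10 to below 50 had a median Saline SD of 24.3 percentage points. The 13 members between 50 and 150 had a median SD of 15.4, and the 11 members at 150 or more one of 8.02. The other promoters in the same ranges had medians of 24.8 (1072 promoters), 17.9 (1607) and 10.98 (1236). In each range the median SD of the members was thus below that of other partially methylated promoters of like depth, a comparison made without a test. Single members did not follow mean coverage in strict order. For example, Pcdhga10 had an SD of 5.76 on 634 reads, Pcdha8 one of 6.88 on 193 reads and Pcdhga1 one of 22.3 on 233 reads. Mean coverage hides how the reads were spread over single mice, and whether coverage accounts for these SDs was not tested. How much of the wider SDs is counting error was not tested, since no value per mouse and CpG site was analysed here.

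**Figure D3:**
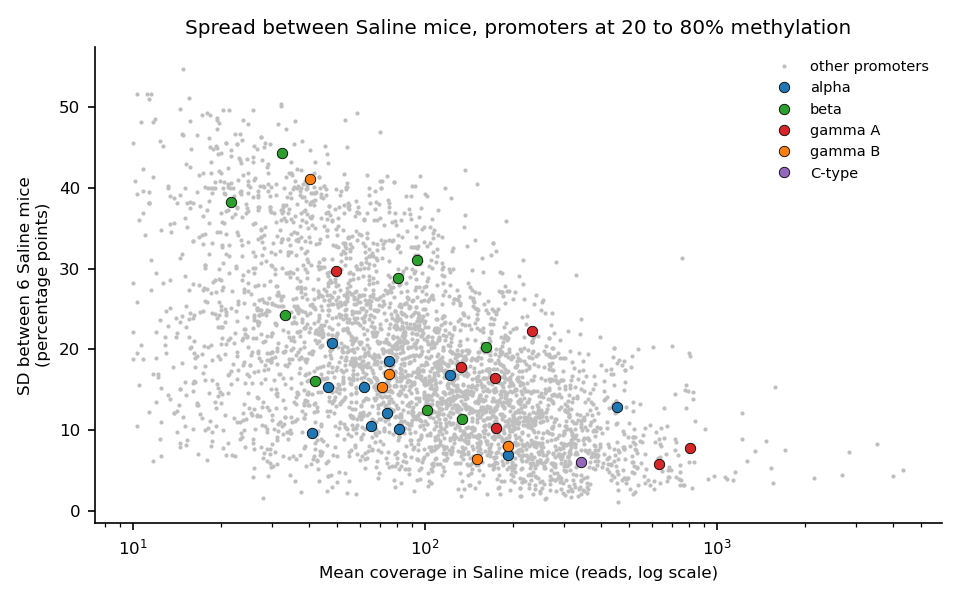
SD between the 6 Saline mice (y axis, percentage points) against mean Saline coverage (x axis, reads, log scale) for promoters with 20 to 80% methylation; coloured points are members by class and grey points other promoters. The members fall within the grey cloud, and their median SD drops from 24.3 below 50 reads to 8.02 at 150 reads or more.

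The first comparison asked whether prenatal amphetamine exposure shifted methylation at these promoters. No member promoter passed an adjusted p of 0.05 (limma, Benjamini-Hochberg over all 24391 promoters), whether named by symbol (0 of 31) or by identifier (0 of 14). Among all promoters, 4 (0.0164%) passed, a count that was 67 on an approximate logit scale and 0 among promoters with a coverage of at least 10. The smallest adjusted p (limma) among members was 0.705, at Pcdhga2. At an unadjusted p under 0.05, 2 of the 31 were higher in Amphetamine and 1 was lower, and none of the 14 named by identifier was past this limit. Of all promoters, 2.19% were higher and 1.93% lower at this limit. The median difference over the 31 was 1.41 percentage points, with 17 higher and 14 lower, and 0 over all promoters. Over the 4545 promoters between 20 and 80% in Saline on a coverage of at least 10, members included, it was 1.24, with 2528 higher and 2015 lower.

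By class, the signs were uneven. The Amphetamine mean was the higher one at 10 of 12 alpha promoters, with a median difference of 5.0 percentage points. At the beta promoters it was higher at 6 and lower at 4, and at gamma A at 6 and 5. At gamma B it was lower at 6 of 7, with a median difference of -3.94. At the C-type promoters it was lower at 4 of 5, with a median of -1.14. Neighbouring promoters were measured in the same 11 mice and are not independent, and no test was made over the members of a class.

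Pcdhga2, the second variable gene of the gamma cluster, gave the smallest p among members. Its promoter (chr18:37667453-37669452) had 31.2 ± 10.5% methylation in the 5 Amphetamine mice, which ranged from 15.4 to 44.7%. The 6 Saline mice had 7.14 ± 8.25% and ranged from 0 to 16.7%. The groups thus overlapped by little, the lowest Amphetamine mouse lying just under the highest Saline mouse. The difference was 24.1 percentage points (95% interval 12.0 to 36.2), past an unadjusted p of 0.05 but with an adjusted p of 0.705 (limma). Mean coverage was 97.2 reads in Amphetamine and 33 in Saline, and no Saline mouse had more than 56 reads. The window of 5000 bp that holds this promoter had 49.98% in Amphetamine and 48.98% in Saline (limma, unadjusted p = 0.848). It also holds the Pcdhga2 island in the exon, with 67.5 ± 45.8% in Amphetamine and 82.0 ± 20.7% in Saline (n = 5 each). The window mean is thus not that of the promoter alone.

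Pcdha9 had the largest positive difference. At its promoter (chr18:36996380-36998379), the 4 Amphetamine mice with reads stood at 61.9, 75.0, 75.0 and 75.0%. The 5 Saline mice with reads averaged 40.5 ± 19.1% and ranged from 7.74 to 55.0%. The groups did not overlap, and the difference was 31.2 percentage points (95% interval 8.97 to 53.4, limma, adjusted p = 0.958). A separation of 4 from 5 mice has a two-sided exact permutation p of 0.0159, the smallest that these numbers of mice allow. Coverage differed here as well, with means of 63.0 and 19.8 reads, and in each group 1 mouse had no reads.

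Pcdhb6 had the largest negative difference. Its promoter (chr18:37332421-37334420) stood at 0% in all 3 Amphetamine mice with reads. The 6 Saline mice averaged 73.0 ± 38.2% and ranged from 5.88 to 100%, so that the lowest Saline mouse was close to the Amphetamine mice. The difference was -73.0 percentage points (95% interval -123.1 to -22.9, limma, adjusted p = 0.958). The two-sided exact permutation p of this separation is 0.0238, again the smallest possible for 3 against 6 mice. No Amphetamine mouse had more than 42 reads here, 2 had none, and the Saline mean was 21.7 reads. The gene row of Pcdhb6 gave 0% in 2 Amphetamine mice and 81.2 ± 42.1% in 5 Saline mice, of which 4 stood at 100%. This row overlaps the promoter row, with the same lowest Saline mouse at 5.88%, on a mean coverage of 11.8 and 16.5 reads. It is not an independent second measurement. The surrounding window of 5000 bp had 75.3 ± 14.1% in Amphetamine and 83.4 ± 9.98% in Saline (limma, adjusted p = 0.965).

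Pcdha9 and Pcdhb6 were the only members whose groups did not overlap, compared with 0.541% of all promoters. Both belong to the 8 members with a value missing in at least 1 mouse, and 1.45% of the 3379 promoters with such gaps did not overlap. Among the 37 members with values in all 11 mice, none separated the groups. A full separation of 5 from 6 mice would have a two-sided exact permutation p of 0.00433.

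The remaining members named by size of difference did not approach the limit, apart from Pcdhb12. Pcdhb12 (chr18:37434121-37436120) had 39.9 ± 19.7% in Amphetamine and 13.9 ± 21.6% in Saline, with overlapping mice (20.0 to 64.5% and 0 to 45.5%, limma, adjusted p = 0.958). Pcdhb1 was 11.7 percentage points higher in Amphetamine, with an interval from -29.5 to 53.0. At Pcdhgc5 the difference was -24.4 percentage points, with an interval from -87.1 to 38.4. The differences at Pcdhga6 (-8.71) and Pcdhb9 (-8.41) had intervals from -42.8 to 25.4 and from -36.3 to 19.4, respectively. Some well covered members are given as examples, of which Pcdha5 had an interval from -8.56 to 21.0 around a difference of 6.22. At Pcdhga10, with 663 and 634 reads in Amphetamine and Saline, Amphetamine minus Saline was -7.20 (95% interval -15.3 to 0.870, limma, unadjusted p = 0.0748). At Pcdhga11, on 846 and 811 reads, it was 5.67 (-2.44 to 13.8). At Pcdhac1 it was -0.836 (-10.5 to 8.80), and at Pcdhgb4 -2.50 (-11.3 to 6.31).

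**Figure D4:**
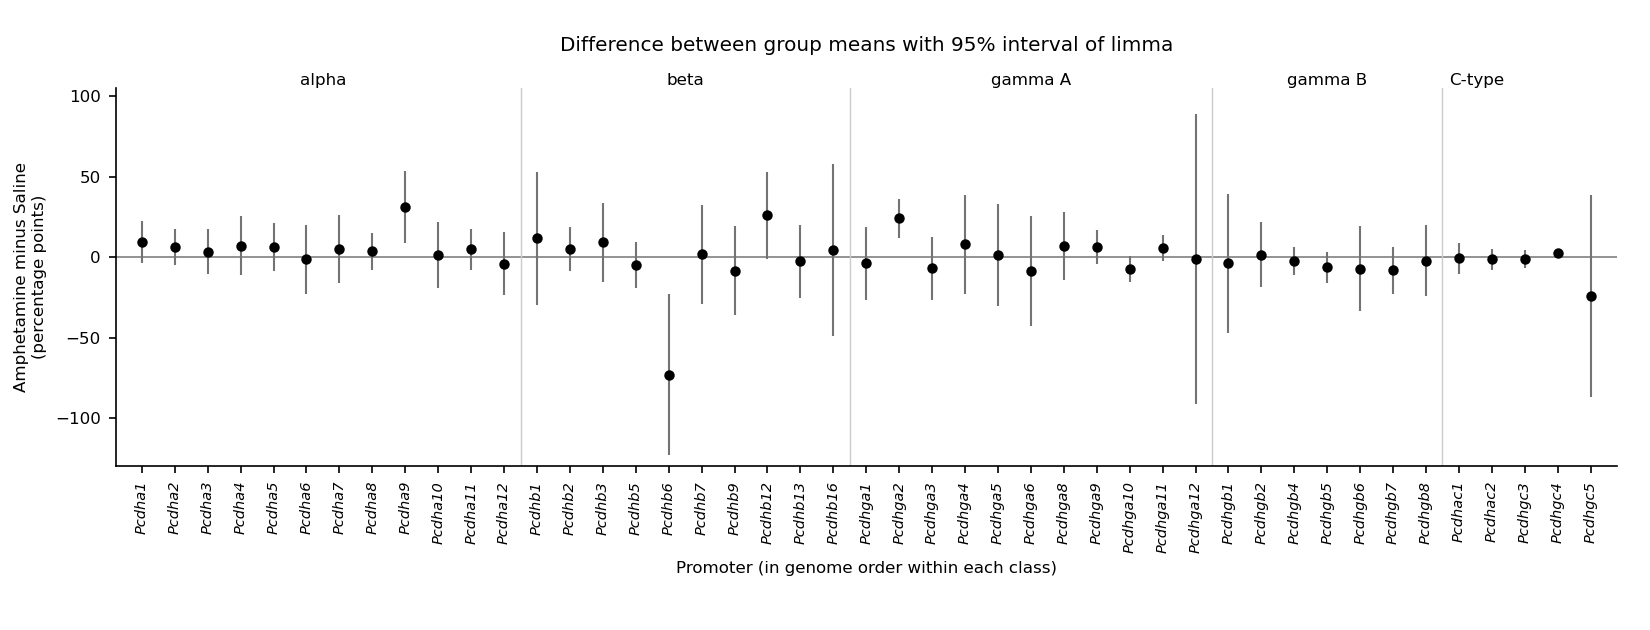
Amphetamine minus Saline methylation (y axis, percentage points) at each of the 45 clustered protocadherin promoters (x axis, in genome order within each class); points are differences of the authors' means and lines the 95% interval from limma, unadjusted. The interval leaves out 0 at Pcdha9, Pcdhb6 and Pcdhga2 only, and is widest at Pcdhga12 (-91.3 to 89.3).

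Outside the C-type genes, the CpG islands near the start of a first exon had a lower median than those further inside, with overlapping ranges. Of the 27 islands, 26 lay in the first exon of a member and 1, at 90.04 ± 9.26% in Saline, lay in no first exon. Of the islands, 17 (63.0%) had a Saline mean between 20 and 80%, compared with 4.76% of all islands. Those near a gene start overlap the promoter rows and share reads with them, so they are not a separate measurement. At Pcdha2, for example, island and promoter both had 38.5% in Saline. All islands in the series had a median of 2.09%, the member islands of 45.1%. Outside the C-type genes, the 9 islands centred within 500 bp of the gene start had a Saline median of 38.5%, ranging from 13.9 to 49.0%. The 14 islands further into the exon, centred 826 to 2079 bp from the start, had a median of 57.9%, ranging from 0 to 91.7%. Both kinds were seen in Pcdhgb6 and Pcdhgb7. In Pcdhgb6 the island at the start had 16.7 ± 25.8% and the inner one 49.8 ± 28.7%. In Pcdhgb7 the order was reversed, as the start had 13.9 ± 11.8%, and the inner island stood at 0% in 4 Saline mice on a mean coverage of 6.83.

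All 5 beta islands belonged to the inner kind, with a Saline median of 63.8%. Position in the exon and class were therefore mixed, and the difference between start and interior was not tested. Among the 26 islands in first exons Pcdhb20 was highest with 91.7 ± 14.4%, from only 3 Saline mice, followed by Pcdhga2 of the gamma cluster with 82.0 ± 20.7% in 5 mice, whose island lies in the exon beyond the promoter. Pcdhb21 had 80.5 ± 10.1%. The lowest islands besides that of Pcdhgb7 were those of Pcdhgc3 (1.17 ± 1.63%) and Pcdhac2 (3.89 ± 4.16%), low like the promoter rows they overlap. The Pcdhac1 island had 22.3 ± 5.89% in Saline and 22.0 ± 6.98% in Amphetamine. No member island reached an unadjusted p under 0.05 between the groups (limma), where 4.11% of all islands did. The 4 smallest p belonged to Pcdhga11 near the start (18.5 and 14.1% in Amphetamine and Saline), Pcdhb14 (73.1 and 63.5%), Pcdhgb8 (51.1 and 62.0%) and the island outside the first exons (83.9 and 90.04%), each with an adjusted p of 0.923 (limma).

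Whole gene rows of the alpha, gamma A and gamma B classes varied less between mice than their promoters, with median Saline SDs of 1.87, 2.07 and 2.07 percentage points. Their median Saline coverage was 3632, 7679 and 6112 reads, compared with 69.8, 133 and 71.3 at the promoters of these classes. The beta genes had a median SD of 15.8 on a median of 86.75 reads, and their promoters one of 23.0. The C-type genes had 6.12 on 691.5 reads, and their promoters 5.98. How far the smaller SDs go with depth was not tested. Genes of the alpha cluster, and likewise those of the gamma cluster, are nested, since each runs from its variable exon to the shared constant exons. Their rows therefore share CpG sites and count the same reads repeatedly. The 12 alpha genes lay between 59.1 and 64.7% in Saline. Pcdha1, which spans the whole cluster, had 61.3 ± 1.61% in Saline and 62.1 ± 0.686% in Amphetamine. All 12 were higher in Amphetamine, by a median of only 0.740 percentage points, and none had an unadjusted p under 0.05.

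The gamma genes formed a slope. Pcdhga1, the longest, had 42.7 ± 1.91% in Saline, and genes that start later mostly had lower values, over Pcdhga8 (36.6 ± 2.04%) and Pcdhga12 (24.4 ± 4.36%) to Pcdhgc3 (12.3 ± 3.81%). Further on they were higher again, with 22.5 ± 10.5% at Pcdhgc4 and 34.6 ± 12.2% at Pcdhgc5. The 18 beta genes, which do not overlap each other in this way, had a median of 72.0%, from 47.9% at Pcdhb12 to 84.6% at Pcdhb20. At an unadjusted p under 0.05, 1 of the 40 genes named by symbol was found (Pcdhb6, whose row overlaps its promoter row). Of the 14 named by identifier, 1 was found, compared with 4.38% of all genes. The latter was Pcdhac1, with 45.9 ± 1.37% in Amphetamine and 41.6 ± 3.65% in Saline on 1649 and 1412 reads (difference 4.29, limma, adjusted p = 0.984). All 5 C-type gene rows had higher means in Amphetamine, with a median difference of 5.63 percentage points. Over all genes, 12350 were higher and 13179 lower. The C-type rows are nested like the other alpha and gamma genes, share reads and are not independent. At 4 of their 5 promoters the mean was lower, by differences of -0.836, -1.43, -1.14 and, at Pcdhgc5 on 11 Saline reads, -24.4 percentage points.

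Windows of 5000 bp showed the course of methylation along the 3 clusters. The stretch of variable alpha exons had a Saline median of 60.4% (23 windows) and that of the gamma variable exons 53.0% (25 windows). The beta cluster (74.2%, 29 windows) and the intervals between alpha and beta (79.2%) and between beta and gamma (80.8%) were higher, closer to the 83.5% of all windows. From Pcdhgc3 to the gamma constant exons the median was 5.25% over 3 windows. The lowest window along the clusters, with 1.21 ± 1.60% in Saline and 3.96 ± 5.53% in Amphetamine, contained the first gamma constant exon. The window at the start of Taf7, a subunit of the general transcription machinery encoded between the beta and gamma clusters, had 3.53 ± 4.49%. A window between alpha and beta that holds no gene start had 4.82 ± 7.60%. The 3 highest windows lay upstream of Pcdhac2 (96.0 ± 7.33%), between beta and gamma (95.7 ± 6.60%) and at Pcdhb21 (95.5 ± 6.16%).

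**Figure D5:**
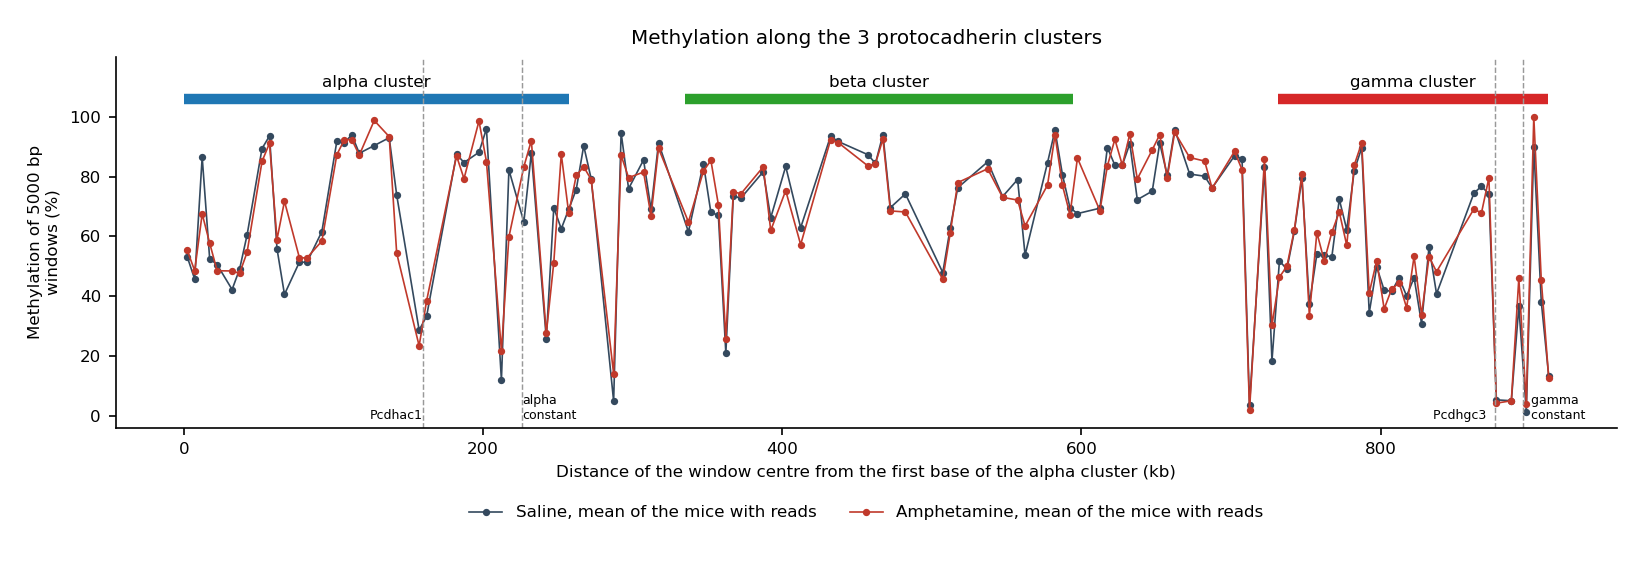
Mean methylation (y axis, percent) of 5000 bp windows against the distance of their centre from the first base of the alpha cluster (x axis, kb) in Saline (dark) and Amphetamine (red) mice; bars at the top mark the 3 clusters and dashed lines Pcdhac1, Pcdhgc3 and the first constant exons. Over the 125 windows, Amphetamine minus Saline had a median of -0.118 percentage points and ranged from -22.5 to 31.2. The lowest window, at the first gamma constant exon, has 1.21% in Saline.

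Between the treatment groups, 4 of the 125 windows had an unadjusted p under 0.05, compared with 4.41% of all windows, and none passed after adjustment. The smallest p belonged to a window upstream of Pcdhac2, with 98.6 ± 3.19% in Amphetamine and 88.1 ± 3.31% in Saline (limma, adjusted p = 0.582). Its mean coverage was 10.8 and 11.3 reads. A second window was that of Pcdha9, in which the reads are those of the promoter, and its values are the same. Another, before Pcdhac1, had 54.4 ± 7.92% in Amphetamine and 73.8 ± 13.6% in Saline (limma, adjusted p = 0.965). The window at the start of Pcdhac2 had 21.7 ± 9.81% in Amphetamine and 11.9 ± 4.19% in Saline (limma, adjusted p = 0.965) on 327 and 269.7 reads. The promoter of Pcdhac2 within it had 1.43 and 2.86%.

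The second comparison of the study set 6 female against 5 male pups, over the same mice. No member promoter passed an adjusted p of 0.05 (limma), the smallest being 0.515. An unadjusted p under 0.05 was reached by 3 of the 31 promoters, compared with 6.09% of all promoters, and none of the members separated the sexes. Pcdhb12 had 40.3 ± 22.0% in females and 8.17 ± 11.2% in males (limma, adjusted p = 0.515). Its ranges were 0 to 64.5% and 0 to 20.8%. Pcdhga6 had 28.4 ± 18.3% and 57.0 ± 19.9% (limma, adjusted p = 0.757), and Pcdha7 had 45.3 ± 13.4% and 63.0 ± 13.7% (limma, adjusted p = 0.817). Pcdhb16 came next, with 38.7% in females and 81.3% in males (limma, adjusted p = 0.836). By class, the female mean was the higher one at 7 of 7 gamma B promoters, with a median difference of 7.04 percentage points. At the beta promoters it was higher at 2 of 10, with a median of -3.68. The counts were 6 of 12 for alpha, 8 of 11 for gamma A and 3 of 5 for C-type. Over all promoters, 12283 were higher in females and 11630 lower. Neighbouring promoters were measured in the same mice and are not independent, and no test was made over a class. Pcdhb12 is thus among the members with the largest differences for sex and for treatment, and the Amphetamine group held 3 females of 5 against 3 of 6 in Saline. How much of either value is due to the other factor was not tested, since values per mouse were not analysed here.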

How the data were processed

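Genomic DNA of 11 P0 pancreata was cut with MspI and TaqI, bisulfite-converted and sequenced as single-end reads by the authors, who aligned the reads to mm10 with Bismark (NextFlow methylseq) and summarized CpG sites per region with RnBeads. The deposited tables hold, for promoters, genes, CpG islands and 5000 bp windows, the methylation fraction as the authors' mean per group, over mice with reads (printed here as percent), with its SD, lowest and highest mouse and the number of mice without a value. Coverage is a signal, the mean of all mice of a group as deposited by the authors, not adjusted for sequencing depth, and is taken here to be the sum of reads over the sites of a region. Values per mouse were not analysed here. Where a group had 3 or 4 mice with reads, the values of single mice follow from its mean, SD, lowest and highest. The tables also hold the authors' own differences, log2 quotients, p-values, adjusted p-values and ranks, which were not used.

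Differences were tested with limma 3.58.1 (R 4.3.3), whose moderated statistic was computed from each group's mean, SD and number of mice over the whole table of a region class, without covariates, two-sided and with Benjamini-Hochberg adjustment. On simulated data this gave the same p-values as limma on values per mouse. Intervals are unadjusted 95% intervals of that fit. With 5 against 6 mice and means on 5.67 to 845.6 reads, the precision of a member is limited by depth as well as by the number of mice. The intervals rest on the observed SD between mice, which holds counting error of the reads as well as differences between mice. The share of each was not tested. Rows without a symbol were named by identifier in GENCODE M21, and rows with joint symbols by the nearest RefSeq gene start. CpG sites were counted in GRCm38, the assembly of mm10. The members and gene lists were chosen with earlier results of these data known. Named with values were all C-type promoters, the 3 highest and 3 lowest of the other classes by Saline mean on a coverage of at least 10, the 4 largest differences in each direction, the 4 smallest p-values for treatment and for sex, the 4 largest Saline SDs, and any member whose groups did not overlap. Alternatives were another variance prior, a logit scale (offset 0.01), coverage minimums of 10 and 50, only regions with all mice, only regions with an SD above 0, autosomes only, other region classes and other thresholds. The choice between rows named by symbol and by identifier was added after the data were seen. A few well covered promoters were named as examples outside these rules.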

Additional observations from a re-analysis of the deposited data

Results flagged for a closer look

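Single mice stood far from the rest of their group in several member regions. The gap between the farthest mouse and its nearest neighbour, as a share of the group's range, was compared with Dixon's 95% value. The deposited mean, SD, lowest and highest mouse settle this for most groups of 4 to 6 mice. Of 244 groups over promoters, islands and genes, 15 were past the value, and 21 could not be settled. Chance flags about 1 in 20 groups, and promoter and island or gene rows share reads.

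At promoters, 1 Saline mouse had 19.05% at Pcdha2 where the other 5 averaged 42.4%, and the same reads gave 19.05% at the Pcdha2 island. At Pcdha9, 1 Amphetamine mouse had 61.92% and the other 3 stood at 75.0%. Pcdhac2 was at 0% in 4 Amphetamine mice and at 7.143% in the fifth, and in Saline 1 mouse had 15.0% where the others averaged 0.428%. Its island had 16.79% in 1 Amphetamine mouse and a mean of 0.189% in the others. Pcdhgb6 stood at 0% in 4 Amphetamine mice and at 45.26% in 1, and its island near the gene start at 0% in 3 and at 100% in 1. At Pcdhgb7, both the promoter and its island near the start had 23.96% in 1 Amphetamine mouse and a mean of 0.962% in the others. Among gene rows, Pcdhb6 had 5.882% in 1 Saline mouse and 100% in the other 4. The lowest Saline mouse had 58.48% at Pcdhb5 (others 71.9%), and the lowest Amphetamine mouse had 47.73% at Pcdhb14 (others 85.5%). The highest Saline mouse had 37.3% at Pcdhgb7 (others 30.6%) and 36.13% at Pcdhga11 (others 29.0%). Whether these are the same mice from region to region was not tested.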

How the results depend on the processing

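No member promoter passed an adjusted p of 0.05 (limma) under a prior that follows the mean methylation, the logit scale, either coverage minimum, all 11 mice, an SD above 0, autosomes, gene bodies, CpG islands, windows or with the rows named by identifier, and none passed an adjusted p of 0.1. The smallest adjusted p among members (limma) ranged from 0.102 (Pcdhb6, logit scale) to 0.984 (gene bodies). The former rests on the approximate logit scale, at a promoter with 0% in all 3 Amphetamine mice with reads. At an unadjusted p under 0.05, 3 members were counted for treatment and 3 for sex. The count for treatment was 0 of 17 at a coverage of at least 50. There all 3 drop out by construction, as Pcdhga2, Pcdhb6 and Pcdha9 had Saline means of 33, 21.7 and 19.8 reads. This setting is therefore no retest of them. With all 11 mice the count was 1 of 25, where Pcdha9 and Pcdhb6 drop out by construction. The median difference of 1.41 percentage points was -0.415 over gene bodies, -0.384 over islands and -0.118 over windows. Of the class medians in Saline, alpha moved to 61.5% and C-type to 34.6% over gene bodies, and C-type to 14.3% with an SD above 0, which leaves out Pcdhgc4. The beta median of 58.6% was 46.9% at a coverage of at least 50, under the alpha median of 47.0%. Over all promoters, the count past an adjusted p of 0.05 was 4, 67 on the logit scale and 0 at either coverage minimum, with all 11 mice or with an SD above 0. For medians, a value counted as unmoved if it shifted by less than the median SD between Saline mice at a single promoter. That SD is not the error of a median over members, so the yardstick is wide. The median difference counted as unmoved although its sign changed over gene bodies, islands and windows. With the beta median among them, 53 values of the main results were unmoved by this yardstick or kept their count. The adjusted p of Pcdhga2 (limma) ranged from 0.290 to 0.894 over 6 alternatives. Leaving out each mouse was not run, since values per mouse were not analysed here. No paired analysis was possible because the labels give no shared replicate numbers. Depth limits members too: 14 of the 31 promoters named by symbol fell under a coverage of 50 in a group.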
